A study of Mus musculus with 5 samples.

Results

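Msi2, Syncrip, Igf2bp2, Igf2bp3, Lin28b, Hmga1 and Hmga2 encode RNA-binding proteins and chromatin proteins that are connected with self-renewal of stem cells. These 7 genes were taken by symbol from the 33894 genes named in the deposited count and TPM files, and the set was chosen by the measured level of Msi2, which was higher in dKO-labelled libraries. All 7 symbols were found, and 6 of them were among the 13696 genes that passed the filter on low counts. Lin28b did not pass it. The direction and size of the Msi2 difference, and every other difference between the genotypes in these 7 genes, are therefore descriptions and carry no test.

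The 5 bulk RNA-seq libraries came from haematopoietic stem cells of mouse bone marrow at 8 weeks of age, sorted by the absence of lineage markers, CD34 and Flt3 and the presence of Sca1 with high c-Kit. In 3 libraries, labelled dKO, the mice carried Vav-cre on a background of Lrp5 fl/fl plus Lrp6 fl/fl, that is, floxed copies of both Wnt co-receptor genes and a Cre recombinase driven in blood cells by the Vav promoter. The other 2 libraries are labelled WT, and no Cre or floxed allele is named for them, so an effect of Cre and one of losing both receptors cannot be told apart. Each library was made by Smart-seq2, a full-length method for small amounts of RNA, from 6K cells, and the labels do not say whether each came from a separate animal.

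The genes fall into a few roles. MSI2, a Musashi protein, binds UAG-containing motifs in messenger RNAs and controls their translation. SYNCRIP, also called hnRNP Q, binds messenger RNAs and was found as a partner of MSI2 in leukaemia cells. IGF2BP2 and IGF2BP3 bind messenger RNAs and stabilise them. LIN28B blocks the maturation of let-7 microRNAs, and let-7 in turn represses HMGA2 and IGF2BP messages. HMGA1 and HMGA2 are small proteins that bind AT-rich DNA and bend chromatin. In mice, Lin28b, Hmga2 and Igf2bp3 are known for high activity in fetal stem cells and lower activity in adult ones.

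The smallest library, dKO replicate 2, held 16028512 counts and the largest, WT replicate 2, held 28027458. The library dKO replicate 2 stood apart, with a highest correlation across genes of 0.851 with any other library in log2 CPM (CPM is the count scaled to a common library size), while each of the other 4 reached 0.906 or more. Lrp6 was not lower in dKO-labelled libraries, with 790, 260 and 767 counts there and 660 and 232 counts in WT. Lrp5 was scarce, with 37, 2 and 71 counts against 7 and 32 counts. Counts over a whole gene cannot show whether its floxed part was lost, so the genotypes rest on the labels alone. All 15 stem cell markers on the list, among them Kit, Procr and Hlf, had counts in every library. Among T cell markers, Cd3e had 0 counts in every library and Cd8a at most 4. Cd3g had 178 counts in dKO replicate 2 and at most 21 in any other library, and Cd4 had 19 to 145 counts.

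Members of the let-7 family share 1 seed, bases 2 to 8 of the mature microRNA, and are shown because 6 of the 7 genes carry matches to it. The mature sequences are those of RefSeq on GRCm38.p6, 5′ to 3′, with the seed in capitals.
let-7a-5p: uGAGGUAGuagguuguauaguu
let-7b-5p: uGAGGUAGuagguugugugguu
let-7c-5p: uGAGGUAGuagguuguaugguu
let-7d-5p: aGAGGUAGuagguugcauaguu
let-7e-5p: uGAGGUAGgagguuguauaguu
let-7f-5p: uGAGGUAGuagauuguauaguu
let-7g-5p: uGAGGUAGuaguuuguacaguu
let-7i-5p: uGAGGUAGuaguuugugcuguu

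The reverse complement of that seed, CTACCTC, was searched on the sense strand in the 3′ untranslated region of 1 transcript per gene of GENCODE M21 (GRCm38), the protein-coding one with the longest such region. Hmga2 and Lin28b held 4 matches each, and Syncrip, Igf2bp2, Igf2bp3 and Hmga1 held 1 each. Msi2 held none in 5310 bases. Of 21676 genes searched in the same way, 8.67% held at least 1 match and 1.04% at least 2. Long regions hold a match more often. Among genes whose region was at least 0.8 times as long, and not longer by more than the inverse ratio, the share with a match was 8.12% for the length of Hmga1, 12% for Igf2bp2, 13.3% for Igf2bp3, 16.1% for Hmga2, 24.1% for Lin28b, 28.4% for Msi2 and 39.0% for Syncrip. The sites below are written 5′ to 3′ in DNA letters with the match in capitals, and the last base lies opposite base 1 of let-7.
Hmga2 match 1: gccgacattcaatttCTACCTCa
Hmga2 match 2: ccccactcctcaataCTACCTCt
Hmga2 match 3: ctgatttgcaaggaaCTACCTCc
Hmga2 match 4: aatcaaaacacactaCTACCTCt
Lin28b match 1: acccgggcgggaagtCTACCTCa
Igf2bp2: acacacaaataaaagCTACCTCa
Igf2bp3: tgcatttttactcaaCTACCTCa
Syncrip: taaagggttggttaaCTACCTCa
Hmga1: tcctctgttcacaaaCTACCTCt

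An A after the match lengthens the recognised site to 8 bases. It was present in at least 1 match of 5 of the 7 genes, against 2.93% of all genes searched. That share was not matched for length. The untranslated regions of the 5 genes had 1784 to 7245 bases, against a median of 908 over the genes searched. Hmga1 had a T after its match, and Msi2 had no match. These matches describe the sequences only, since the libraries do not measure mature microRNAs. The 8 let-7 precursor entries examined had between 0 and 12 counts in any library, and 5 of them had 0 in all libraries.

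Msi2 was the gene for which the set was chosen. It had 2412, 2310 and 2954 counts in dKO-labelled libraries and 1268 and 973 counts in WT. Scaled to library size by the TMM method these were 88.8, 139 and 109 CPM in dKO replicates 1, 2 and 3, against 48.1 and 39.0 CPM in WT replicates 1 and 2. All 3 dKO-labelled libraries lay above both WT libraries, the lowest of them 1.85-fold above the higher WT library. The group means were 113 ± 25.5 CPM (SD, n = 3) in dKO-labelled libraries and 43.5 ± 6.50 CPM (SD, n = 2) in WT. edgeR gave a log2 fold change, dKO over WT, of 1.37 (SE 0.29), and this value lay between 1.19 and 1.53 whichever library was left out. In these bulk samples, more cells with Msi2 message and more message per cell cannot be told apart.

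The deposited TPM values, which are scaled for transcript length, gave the same picture for Msi2. They were 43.2, 55.1 and 38.2 TPM in dKO-labelled libraries and 17.98 and 13.9 TPM in WT, a 2.86-fold ratio of means against 2.58-fold in CPM. The paralog Msi1, which marks neural stem cells, was barely detected, at 5, 6 and 6 counts in dKO-labelled libraries and 1 and 2 counts in WT. Its mean over the 5 libraries was 0.126 TPM, against 33.7 TPM for Msi2.

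The summed level of the 15 stem cell markers moved with Msi2. It was 2550, 2649 and 2504 CPM in dKO-labelled libraries and 1964 and 1309 CPM in WT. The 10 markers of granulocyte and monocyte progenitors, led by myeloperoxidase, summed to 13427, 17013 and 12262 CPM in dKO-labelled libraries, against 7178 and 43410 CPM in WT replicates 1 and 2. WT replicate 2, the library with the lowest Msi2, thus had the highest sum of progenitor markers, whereas WT replicate 1 had the lowest. The part of either marker group in the Msi2 difference was not tested. Without WT replicate 2 the log2 fold change of Msi2 was 1.22.

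**Figure D1:**
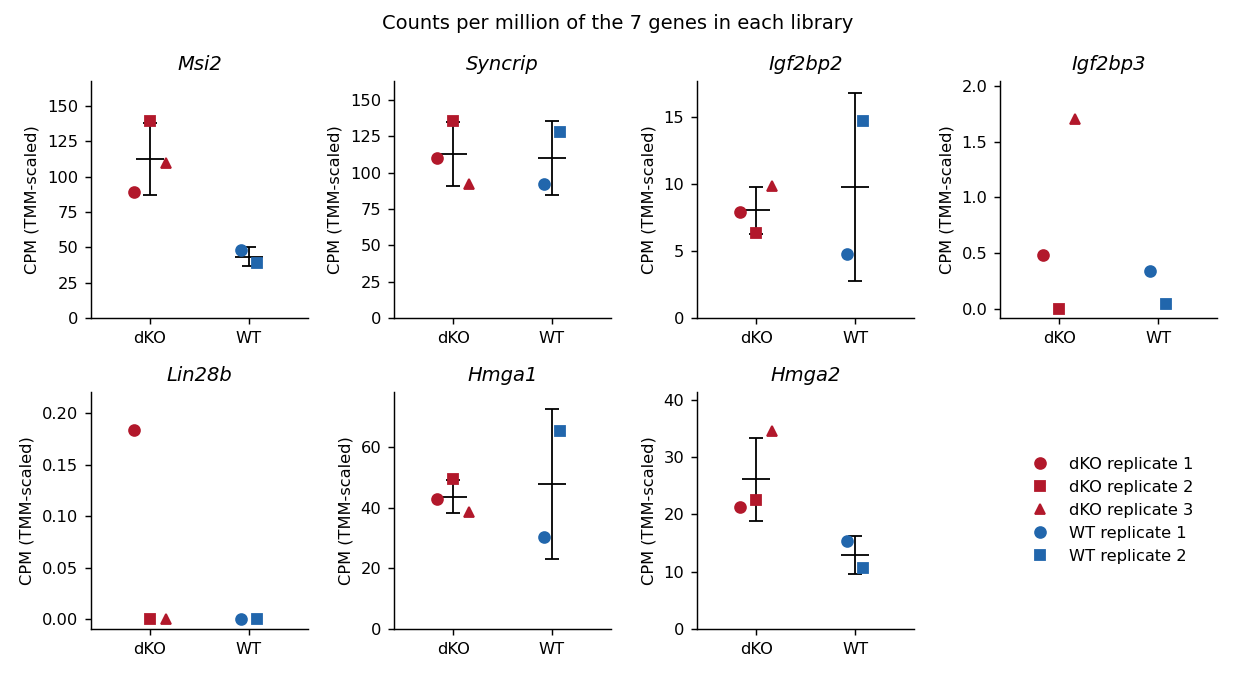
CPM (y axis, TMM-scaled, own scale per panel) of the 7 genes in dKO-labelled libraries (red, n = 3) and WT (blue, n = 2); points are libraries, and bars give the mean and SD except for Igf2bp3 and Lin28b, which are near 0. Msi2 and Hmga2 are higher in every dKO library than in either WT library, and the groups overlap in the other 5 genes.

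Syncrip, the partner of MSI2, did not share its pattern. It measured 110, 136 and 92.3 CPM in dKO-labelled libraries and 92.2 and 128 CPM in WT, and the groups overlapped. The log2 fold change was 0.03 (SE 0.26). Its TPM values were 35.7, 49.3 and 25.7 in dKO-labelled libraries and 26.3 and 33.8 in WT. The ratio of Msi2 to Syncrip in TPM was 1.21, 1.12 and 1.49 in dKO-labelled libraries and 0.683 and 0.411 in WT.

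A part of Syncrip is also listed as Gm20537, an entry on the same strand that shares exons with it. Gm20537 had 0 counts in every library but 7.39, 20.9 and 6.33 TPM in dKO-labelled libraries and 4.42 and 7.72 TPM in WT, so counts and TPM divided this locus differently. With Gm20537 added to Syncrip, a sum chosen after the values were seen, the ratio of Msi2 to the locus was 1.001, 0.785 and 1.19 in dKO-labelled libraries and 0.585 and 0.335 in WT. Which of Msi2 and Syncrip was the more abundant in dKO replicates 1 and 2 is thus not settled. A processed pseudogene, Gm6501, is 99.7% identical to Syncrip over 917 bases of its transcript, and reads from that stretch cannot be assigned with certainty.

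Igf2bp2 was lowly expressed and varied most between the WT libraries. It had 214, 105 and 267 counts in dKO-labelled libraries, or 7.88, 6.34 and 9.89 CPM, and 127 and 368 counts in WT, or 4.82 and 14.7 CPM. Every dKO-labelled library lay between the 2 WT libraries. The log2 fold change of -0.28 (SE 0.72) became 0.74 when WT replicate 2 was left out and -0.88 when WT replicate 1 was, so a single WT library set its sign. In log2 TPM with a pseudocount of 1 it was 0.15.

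Igf2bp3, a fetal and tumour paralog of Igf2bp2, was scarce. It had 13, 0 and 46 counts in dKO-labelled libraries and 9 and 1 counts in WT. It passed the filter only through dKO replicates 1 and 3. With 0 counts, dKO replicate 2 allows up to 0.187 CPM (3 counts in that library, counting error only). Unlike the other CPM values, this limit uses the total counts without TMM scaling. Its fitted log2 fold change lay between -0.57 and 4.02 across the settings tried, so no direction is given. Its transcript overlaps 1529 bases of 2410003K15Rik on the opposite strand. That gene had 586 to 708 counts in dKO-labelled libraries and 922 and 1025 counts in WT, and standard Smart-seq2 does not mark strand, so reads of the shared stretch cannot be told apart. The remaining family member, Igf2bp1, had 0 counts in all 5 libraries.

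Lin28b was detected in 1 library only, dKO replicate 1, with 5 counts. The 0 counts elsewhere allow up to 0.187 and 0.112 CPM in dKO replicates 2 and 3. In WT replicates 1 and 2 they allow up to 0.114 and 0.107 CPM, all without TMM scaling. Its paralog Lin28a had 10 counts in the same library and 0 in the remaining 4. At this depth no difference in either LIN28 gene was detectable.

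Hmga2 was, with Msi2, the gene whose groups did not overlap. It had 578, 373 and 932 counts in dKO-labelled libraries and 402 and 264 counts in WT, which is 21.3, 22.5 and 34.5 CPM against 15.3 and 10.6 CPM. The highest value belonged to dKO replicate 3, and the gap between the lowest dKO-labelled library and the higher WT library was smaller than the spread within the dKO group. The log2 fold change was 1.02 (SE 0.45), with a range of 0.76 to 1.30 when 1 library at a time was left out. Non-overlapping higher values were seen in 2 of the 6 tested genes and in 13.7% of all 13696 tested genes. No inference is drawn from that count because the same contrast chose the set.

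The size of the Hmga2 difference depended on the unit. Its TPM values were 1.48, 2.42 and 4.82 in dKO-labelled libraries and 1.06 and 0.357 in WT, a 4.12-fold ratio of means where CPM gave 2.02-fold. Hmga2 also collected far more counts for each unit of TPM than the other genes of the set did, namely 390, 154 and 193 in dKO-labelled libraries and 381 and 739 in WT. Msi2, whose GENCODE transcript of 6436 bases is longer than the 3810 bases of Hmga2, had 41.9 to 77.3 counts per unit of TPM in dKO-labelled libraries and 70.5 and 70.1 in WT. The library medians over tested genes were 21.4 to 39.6 in dKO-labelled libraries and 37.8 and 41.3 in WT. Counts and TPM therefore give Hmga2 different levels, and which is nearer to the true one was not tested. A stretch of 488 bases of Hmga2 is 92.4% identical to a transcript listed as Synj2bp. An antisense gene, 1700006J14Rik, shares exon sequence with Hmga2 and had 20, 106 and 48 counts in dKO-labelled libraries and 21 and 72 counts in WT.

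**Figure D2:**
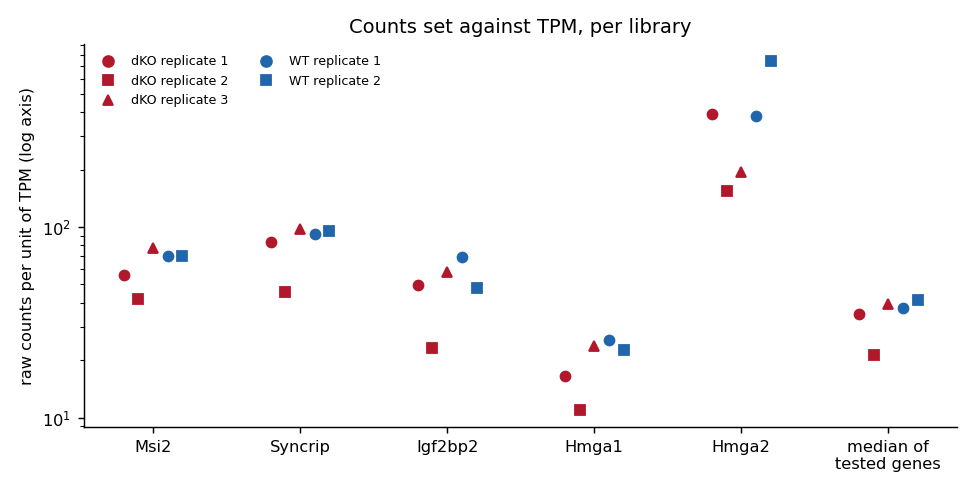
Raw counts per unit of deposited TPM (y axis, log scale) in each library for 5 of the genes and the median of the tested genes with TPM above 0. Hmga2 lies at 154 to 739, while Msi2, Syncrip, Igf2bp2 and Hmga1 lie below 100.

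Hmga1 was the most abundant of the 7 genes per transcript length. It had 1169, 819 and 1043 counts in dKO-labelled libraries, or 43.1, 49.5 and 38.6 CPM, and 798 and 1631 counts in WT, or 30.3 and 65.3 CPM. As for Igf2bp2, the 3 dKO-labelled libraries lay between the 2 WT libraries. The log2 fold change was -0.13 (SE 0.38), and leaving out WT replicate 2 gave 0.53, while leaving out WT replicate 1 gave -0.58. The TPM values were 70.6, 74.8 and 43.8 in dKO-labelled libraries and 31.2 and 72.3 in WT, and on the log2 scale with a pseudocount of 1 the difference was 0.36. The sign of the Hmga1 difference is thus not settled by these files. An antisense gene, AI413582, shares exon sequence with it, and reads of that stretch cannot be told apart.

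Per transcript length, in deposited TPM, 3 of the 7 genes were abundant and 4 scarce. The means over the 5 libraries were 58.5 TPM for Hmga1, 34.2 for Syncrip and 33.7 for Msi2, then 4.59 for Igf2bp2, 2.03 for Hmga2, 0.743 for Igf2bp3 and 0.0411 for Lin28b. Msi2 and Igf2bp2, the neighbours across the gap, had ranges that did not overlap, with a lowest Msi2 value of 13.9 TPM and a highest Igf2bp2 value of 7.69 TPM. All other neighbours in this order had overlapping ranges. Hmga1 was above Syncrip in each of the 5 libraries, and Igf2bp2 was above Hmga2 in 4. In CPM per kb of GENCODE transcript, a scale added after the values were seen, Igf2bp2 was above Hmga2 in only 1 library. On that scale Hmga2 measured 5.59, 5.91 and 9.06 CPM per kb in dKO-labelled libraries and 4.01 and 2.77 in WT, and Igf2bp2 measured 2.02, 1.63 and 2.54 in dKO-labelled libraries and 1.24 and 3.78 in WT. Msi2, at 13.8, 21.7 and 17.0 CPM per kb in dKO-labelled libraries and 7.48 and 6.05 in WT, then overlapped with Hmga2 in range. The places of Hmga2 and Igf2bp2 in the order therefore depend on the unit. Among the tested genes 67.6% had a lower mean TPM than Msi2, 77.8% than Hmga1 and 18.3% than Hmga2.

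**Figure D3:**
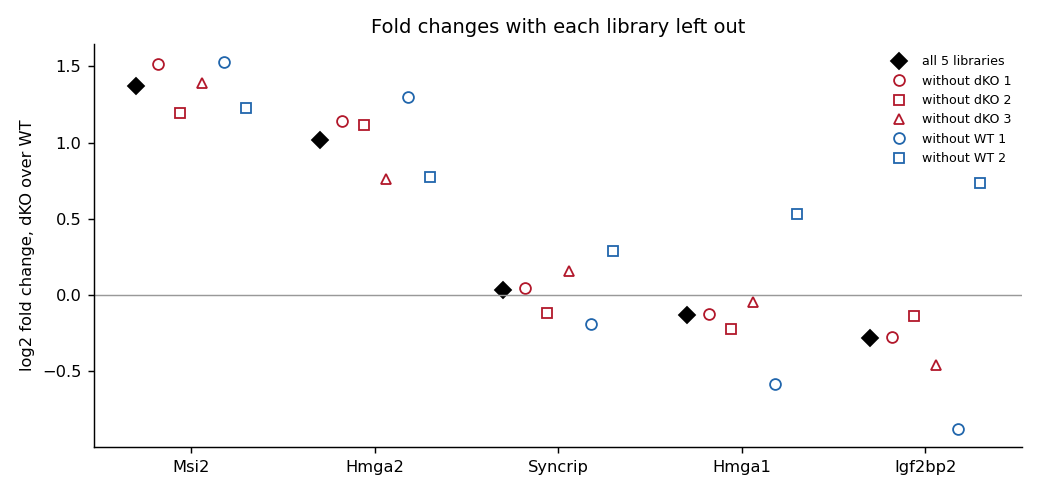
Log2 fold change, dKO over WT, from edgeR (y axis) for 5 genes with all libraries (black diamonds) and with each library left out in turn (open symbols, red for dKO and blue for WT). Msi2 stays between 1.19 and 1.53 and Hmga2 between 0.76 and 1.30, while Syncrip, Hmga1 and Igf2bp2 lie on both sides of 0.

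The genes with the most similar profile to Msi2 were found by the root mean square distance of log2 CPM over the 5 libraries, after each gene was centred on its own mean. The nearest of the 13696 genes were the histone deacetylase gene Hdac11, at a distance of 0.08, then Gm12940, Fam110a, the NF-kappaB subunit Relb, Sbsn and an entry named U6, at 0.09 to 0.11. Hdac11 measured 15.03, 22.8 and 19.8 CPM in dKO-labelled libraries and 7.33 and 6.33 CPM in WT. Since these genes were picked for likeness, their difference between the groups is a description. None of the 6 was among the 6 nearest when log2 TPM was used instead of log2 CPM. Nearest to Syncrip were Nat15, Atp2b1 and 4930453N24Rik. Among the 3 nearest to Hmga1 were Man2a1 and Retsat, and nearest to Hmga2 were 7SK, Gm13225 and Rps6ka5. Igf2bp2 was most like Svip, Ctf2 and Gda, and Igf2bp3 like the scarce entries Gm10499, Sema7a and Tmod4.

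Over all genes the comparison of the dKO-labelled libraries with WT made no call. In the quasi-likelihood test of edgeR, adjusted by Benjamini and Hochberg, 0 of 13696 genes (0%) were called higher and 0 (0%) lower. At an unadjusted p under 0.05 there were 677 higher (4.94%) and 711 lower (5.19%), and DESeq2 called 154 higher and 91 lower after adjustment. The 9 lists described next, which leave out the 7 genes, hold 135 tested genes. Of these 0 were called by edgeR, 10 were higher and 2 lower at an unadjusted p under 0.05, and DESeq2 called 5 higher (Cdkn1a, Junb, Zfp36, Zfp36l1 and Tia1) and 0 lower. The adjusted p-values below are from the edgeR fit unless DESeq2 is named. The median log2 fold change of all tested genes also moved when a library was left out. It was 0.002, 0.05 and -0.009 without dKO replicate 1, 2 or 3, and 0.11 and 0.04 without WT replicate 1 or 2. List medians with a library left out are to be read beside these values.

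Among genes linked in earlier work to MSI2 or SYNCRIP, positive values prevailed. Of 12 tested genes 11 had a positive log2 fold change and 0 were called by edgeR, with a median of 0.33 against 0.04 over all tested genes, of which 52.2% were positive. Leaving out WT replicate 1 gave a median of 0.73, against 0.11 over all tested genes. Leaving out WT replicate 2 gave 0.17, against 0.04 over all tested genes. That 0.17 lay below the 0.22 of the HMGA and IGF2BP target list and the 0.20 of the let-7 target list without that library. The cell cycle inhibitor Cdkn1a measured 111, 173 and 160 CPM in dKO-labelled libraries and 37.5 and 40.0 CPM in WT, a log2 fold change of 1.93 (SE 0.28, edgeR adjusted p = 0.247, DESeq2 adjusted p = 1.63e-07). The survival gene Bcl2 had 1.26 (SE 0.54, edgeR adjusted p = 0.491). Mecom, a stem cell transcription factor, had a log2 fold change of 0.69 (SE 0.35) and the TGF-beta signal transducer Smad3 one of 0.76 (SE 0.43). The fate determinant Numb, whose message MSI2 is known to repress, was at 29.6, 50.2 and 21.7 CPM in dKO-labelled libraries and 31.7 and 31.5 CPM in WT. Myc and Hoxa9, reported as MSI2 targets in leukaemia, had log2 fold changes of 0.09 (SE 0.19) and 0.28 (SE 0.33). Numb, Myc and Hoxa9 were picked with their values in view.

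The let-7 processing list, which holds the enzymes that make, modify and degrade let-7 precursors, showed no common direction. Of 16 tested genes 9 were positive and 7 negative, with a median of 0.10, and 0 were called. Leaving out WT replicate 1 turned the sign of the median, to -0.06, leaving out dKO replicate 3 gave 0.02, and it lay between 0.08 and 0.15 when any other single library was left out. Zcchc6, a terminal uridylyl transferase that acts on let-7 precursors, measured 94.3, 76.0 and 101 CPM in dKO-labelled libraries and 56.0 and 56.6 CPM in WT, which do not overlap (log2 fold change 0.68, SE 0.25, edgeR adjusted p = 0.448). Its paralog Zcchc11, named after its value was seen, had 0.17 (SE 0.44). The helicase Ddx5 had 0.39 (SE 0.19), the precursor exporter Xpo5 -0.71 (SE 0.43) and Hnrnpa1, which binds let-7 precursors, -0.82 (SE 0.22). The adjusted p of Hnrnpa1 by edgeR was 0.430.

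Known let-7 target genes outside the set had 13 positive and 8 negative values among 21 tested, a median of 0.09 and 0 calls. With 1 library at a time left out the median lay between 0.11 (without dKO replicate 2) and 0.24 (without dKO replicate 1). Among the 4 genes with the smallest p were the insulin receptor Insr, with a log2 fold change of 0.96 (SE 0.42), Irs2 with 2.39 (SE 1.33) and Arid3b with 2.17 (SE 1.29), and the smallest adjusted p in the edgeR fit was 0.501, for Insr. Irs2 and Arid3b were scarce in WT, at 0.721 and 0.841 CPM for Irs2 and 4.10 and 0.120 CPM for Arid3b. Of 10 listed genes of the fetal programme outside the set, 2 passed the filter, Afp with -1.08 (SE 0.78) and Arid3a with -0.12 (SE 1.47), and 0 were called. Igf2, H19 and the embryonic globins Hbb-y and Hbb-bh1, named after their values were seen, had at most 0.368 CPM in any library.

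Genes reported as targets of HMGA or IGF2BP proteins had 7 positive and 4 negative values among 11 tested, with a median of 0.09 and 0 calls. Leaving out dKO replicate 1, 2 or 3 gave medians of 0.33, 0.07 and 0.20, and leaving out WT replicate 1 or 2 gave 0.11 and 0.22. The AP-1 member Junb measured 236, 291 and 154 CPM in dKO-labelled libraries and 116 and 90.6 CPM in WT (log2 fold change 1.14, SE 0.30, edgeR adjusted p = 0.430). Cyclin A2, Ccna2, measured 51.4, 53.2 and 53.5 CPM in dKO-labelled libraries against 79.2 and 107 CPM in WT (log2 fold change -0.82, SE 0.25, edgeR adjusted p = 0.436). Ptgs2 and the growth factor Igf1 had log2 fold changes of 1.65 (SE 0.56) and 3.18 (SE 1.26).

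The other hnRNP proteins, the family of Syncrip, had 7 positive and 18 negative values among 25 tested genes in counts, with a median of -0.31 and 0 calls, but 12 of 25 were positive in log2 TPM. All 3 dKO-labelled libraries lay below both WT libraries in 8 of the 25, against 15.6% of all tested genes. Hnrnpa1 measured 248, 259 and 328 CPM in dKO-labelled libraries and 413 and 571 CPM in WT. Hnrnph2, Hnrnpa3 and Hnrnpf had log2 fold changes of -0.46 (SE 0.21), -0.49 (SE 0.22) and -0.34 (SE 0.16). Hnrnpr, the closest paralog of Syncrip and named for that after its value was seen, had 0.003 (SE 0.20). In TPM the median log2 difference of all tested genes was 0.14, against 0.04 in counts.

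Among 38 other RNA-binding regulators of stability and translation, 20 were positive and 18 negative, with a median of 0.05 and 0 calls. With a library left out the median lay between 0.03 (without dKO replicate 3) and 0.14 (without WT replicate 1). Over all tested genes the medians in these 2 settings were -0.009 and 0.11. Zfp36, which promotes decay of AU-rich messages, measured 666, 909 and 506 CPM in dKO-labelled libraries and 306 and 244 CPM in WT (log2 fold change 1.33, SE 0.28, edgeR adjusted p = 0.430). Its paralog Zfp36l1 had 1.47 (SE 0.40). The stress granule proteins Tia1 and Tial1 had 0.92 (SE 0.24) and 0.73 (SE 0.30). For each of these 4 genes every dKO-labelled library lay above both WT libraries. Of the 38 genes, 8 had every dKO-labelled library above both WT libraries, against 13.7% of all tested genes, and 7 had every one below, against 15.6%.

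The other high mobility group proteins had 6 positive and 11 negative values among 17 tested genes in counts, 9 positive in log2 TPM, with a median in counts of -0.14 and 0 calls. With 1 library left out that median lay between -0.26 (without dKO replicate 2 or WT replicate 1) and -0.02 (without WT replicate 2). Tox, a factor of lymphoid development, measured 35.5, 38.5 and 49.1 CPM in dKO-labelled libraries and 27.5 and 8.45 CPM in WT (log2 fold change 1.19, SE 0.53, edgeR adjusted p = 0.507). Ssrp1, Hmgn2 and Hmgb1, abundant chromatin proteins, had log2 fold changes of -0.34 (SE 0.17), -0.49 (SE 0.26) and -0.43 (SE 0.23). Of the 5 close paralogs of the set, 2 were tested, among them Dazap1 with -0.07 (SE 0.51); both were negative in counts and positive in log2 TPM.

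**Figure D4:**
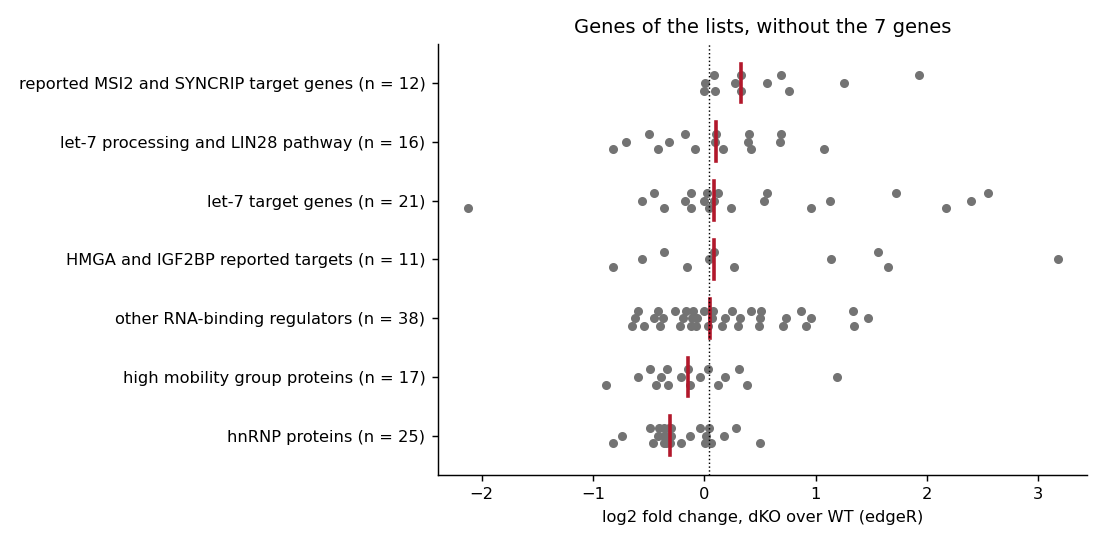
Log2 fold change, dKO over WT, from edgeR (x axis) for each tested gene of 7 lists (grey points, the 7 genes left out), with the list median (red bar) and the median of all 13696 tested genes (dotted line, 0.04). With all 5 libraries the median is 0.33 for the MSI2 and SYNCRIP list and -0.31 for the hnRNP list; 0 genes were called.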

How the data were processed

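RNA from sorted stem cells was sequenced after Smart-seq2, per the labels' protocols. The deposited files hold, per library, raw counts per gene and TPM normalized by the authors. Named in the submitters' processing notes are the build mm9, RSEM 1.2.31, TopHat2 2.1.1, HTSeq, DESeq2, Trimmomatic and FastQC 0.11.5, without saying which made which values. Since the reference used here, GENCODE M21, is of GRCm38, no gene coordinates are printed. Of 33924 entries 30 name no gene; they took 0.216% to 0.269% of counts and were left out.

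The deposited counts entered edgeR 4.0.16 under R 4.3.3 (TMM scaling, filterByExpr, robust quasi-likelihood fit, all 5 libraries, no covariate, Benjamini-Hochberg threshold 0.05). Log2 CPM used a prior count of 2. Since separate animals are not stated, p-values reflect only the spread among these libraries, which may be technical. Libraries of 1 group differed far beyond sampling noise (chi-square per degree of freedom 99.6 to 162). They were therefore not treated as repeat sequencing of 1 library, and each was counted. This does not show that they came from separate animals or separate pools of cells. Copies were found with BLAST 2.17.0.

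The 7 genes and the lists were chosen with earlier results of these data known. Named genes are the 7, up to 4 per list with the smallest p, the nearest genes by profile, chosen markers, Lrp5, Lrp6 and copies or overlapping genes; others are said to be named after their values were seen. Alternatives were DESeq2 1.42.0, limma-voom (limma 3.58.1), other scalings and filters, log2 TPM with limma (pseudocount 1 or 0.1), the replicate block and each library left out. Where WT keeps 1 library, it is assumed to vary like the others. A few genes that fall under it are left out of the text.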

Additional observations from a re-analysis of the deposited data

How the results depend on the processing

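The log2 fold change of Msi2 stayed between 1.19 and 1.53 with each library left out and between 1.22 and 1.503 in the other settings. The number of genes called higher, 0 with edgeR, was 154 with DESeq2, 5 without a filter on low counts, 3 and 2 in log2 TPM with a pseudocount of 1 and 0.1, 1 with the replicate block and 0 to 2 with a library left out. The number called lower, also 0, was 91 with DESeq2, 3 without the filter, 2 in log2 TPM with a pseudocount of 1, and 0 to 2 with a library left out. Of hnRNP genes 7 were positive, and 12 in log2 TPM with either pseudocount, 4 with the replicate block and 4 to 7 with a library left out. Of the 2 tested paralogs 0 were positive, and 2 in log2 TPM with either pseudocount, 2 with the replicate block and 0 to 2 with a library left out. Of the 2 tested fetal genes 0 were positive, and 1 with limma-voom, 1 in log2 TPM with either pseudocount, 1 with the replicate block and 0 to 1 with a library left out. The cause of these shifts was not tested. Of the 6 genes nearest to Msi2, 0 were shared in log2 TPM. The replicate numbers were not used as pairs: deviations from the group means correlated at 0.03 for number 1 and 0.05 for number 2, and the block is a value without a design behind it. The log2 fold change of Hmga1 was 0.36 in log2 TPM with a pseudocount of 1. Low counts limit what can be said of Lin28b, Igf2bp3, Msi1 and the let-7 precursors, which had at most 46 counts in any library.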

Other observations

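An intron of Msi2 holds Gm11510, a processed pseudogene on the same strand that is 88.2% identical to the ribosomal protein gene Rpl35a. Chosen after its values were seen, Gm11510 had 51, 24 and 49 counts in dKO-labelled libraries and 11 and 3 counts in WT, or 1.88, 1.45 and 1.81 CPM against 0.418 and 0.120 CPM. Like Msi2, it was higher in every dKO-labelled library than in either WT library, as were 13.7% of all tested genes (log2 fold change 2.65, SE 1.75, edgeR adjusted p = 0.668). Whether these reads come from the pseudogene, from unspliced Msi2 or from Rpl35a was not tested. Gm15893, an antisense entry within an Msi2 intron, had at most 6 counts in any library.

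AI413582 shares exon sequence with Hmga1 on the opposite strand. It had 635, 490 and 1092 counts in dKO-labelled libraries and 731 and 644 counts in WT. Reads from the shared stretch cannot be told apart without strand.

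Markers of other cells had these summed levels. The 9 mast cell and basophil markers reached 552, 1299 and 639 CPM in dKO-labelled libraries and 300.0 and 728 CPM in WT. The 15 megakaryocyte and erythroid markers reached 396, 413 and 371 CPM in dKO-labelled libraries and 243 and 518 CPM in WT. The 9 B cell markers reached 130.4, 300 and 354 CPM in dKO-labelled libraries and 166 and 113 CPM in WT. The 9 dendritic cell and macrophage markers reached 416, 530 and 920 CPM in dKO-labelled libraries and 325 and 256 CPM in WT. The 9 T and NK cell markers, nearly all Nkg7, reached 573, 713 and 686 CPM in dKO-labelled libraries and 713 and 1887 CPM in WT. The 8 stromal and endothelial markers, mostly Pecam1, reached 70.2, 138 and 88.6 CPM in dKO-labelled libraries and 125 and 96.7 CPM in WT.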
